A study of Mus musculus with 6 samples.

Results

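FGF-ERK signalling was followed in mouse embryonic stem (ES) cells through 10 genes: the ligand Fgf4, the receptors Fgfr1 and Fgfr2, and the feedback genes Dusp6, Spry2, Spry4, Etv4, Etv5, Spred1 and Spred2. Every probe set of the array whose annotation gives a single gene symbol from this set was taken, which gave 10 of 18193 genes and 35 probe sets of the 34945 with 1 symbol. The array has 45037 probe sets that are no control. The genes were represented by 1 (Dusp6) to 8 (Spred1) probe sets each, and each of the 10 was found in the reference annotation through its Entrez number. Probe sets of a gene are not independent of each other, because several read the same transcript record: 3 of the 4 of Fgf4, 2 of the 3 of Etv5, 3 of the 8 of Spred1 and 2 of the 4 of Spry4.

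The cells carried a human GTF2IRD2 insert with a 3xFLAG tag under a tetracycline-repressible promoter, inserted at the Rosa26 locus of the EB3 line, which descends from E14 ES cells. Induced cells had been without tetracycline for 24 hours and uninduced cells (0 hours) had been kept in it, both in medium with serum and LIF. Each of 3 clones, A3, A4 and A5, all with the same insert, gave 1 induced and 1 uninduced array, so that a group held 3 arrays and a clone 2. The groups therefore compare the transgene on and off within clones, no line without the transgene was analysed here, and arrays of a clone come from 1 line. By the paper's methods, the longest annotated coding sequence of GTF2IRD2 was cloned. The insert sequence printed with the study is nevertheless short beside those of its related genes GTF2I and GTF2IRD1. Whether the insert in the cells holds the whole GTF2IRD2 coding sequence is therefore not known.

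FGF receptors are tyrosine kinases that signal through Grb2, Sos and Ras to the kinases Raf, Mek and Erk. ES cells make Fgf4 themselves, under the control of Oct4 and Sox2, and Erk activity prepares them to leave the naive state. Erk also switches on its own brakes: Dusp6 removes phosphate from Erk, Sprouty and Spred proteins act between the receptor and Raf, and Etv4 and Etv5 are Ets-family transcription factors of the PEA3 group. The transcripts of these feedback genes are widely used as a readout of FGF-ERK activity.

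The promoter windows of the genes on which the comparison of clones turns are shown first, where the reference table held one. RefSeq windows (GRCm38.p6), taken here as the 250 bases before the annotated start and written 5′ to 3′ on the strand of the gene, were used for 7 of the 10 genes. Shown are those of Dusp6 (chr10:99262981-99263230, plus strand), Fgf4 (chr7:144861136-144861385, plus strand) and Etv5 (chr16:22439571-22439820, minus strand), the last being 1 of the 2 windows of that gene. Capitals mark matches to CGGAAG, or CTTCCG on the other strand, the form called an Ets core here. They also mark a GC box, GGGCGG or CCGCCC on the other strand. Other stretches with GGAA, the shorter core that Ets factors share, are not marked or counted.
Dusp6: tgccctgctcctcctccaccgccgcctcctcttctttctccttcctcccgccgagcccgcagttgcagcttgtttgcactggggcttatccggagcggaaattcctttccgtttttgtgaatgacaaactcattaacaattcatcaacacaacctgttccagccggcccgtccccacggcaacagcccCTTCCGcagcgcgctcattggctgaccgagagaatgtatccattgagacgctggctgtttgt
Fgf4: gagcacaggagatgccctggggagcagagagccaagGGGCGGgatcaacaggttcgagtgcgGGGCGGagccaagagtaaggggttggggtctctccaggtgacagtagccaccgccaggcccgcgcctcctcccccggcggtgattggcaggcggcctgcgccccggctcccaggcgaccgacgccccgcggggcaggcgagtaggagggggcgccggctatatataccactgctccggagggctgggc
Etv5: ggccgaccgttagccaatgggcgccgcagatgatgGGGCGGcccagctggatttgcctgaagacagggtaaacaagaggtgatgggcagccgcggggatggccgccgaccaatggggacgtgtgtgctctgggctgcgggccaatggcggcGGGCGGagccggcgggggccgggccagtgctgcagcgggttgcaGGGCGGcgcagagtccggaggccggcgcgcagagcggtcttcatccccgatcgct
The Dusp6 window held 1 Ets core of this form, the Fgf4 window 2 GC boxes and this Etv5 window 3 GC boxes. The other Etv5 window held no match of either kind. Of the 8 windows of the genes, 3 held an Ets core and 4 a GC box, and in the Spred2 window a match of each kind overlapped. Among 32851 RefSeq windows of the same length, 13.6% held an Ets core and 32.7% a GC box. These letters are a description of the windows and no binding was measured.

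All 6 arrays were on the scale of the authors' RMA values (log2), whose medians lay between 5.03 and 5.07. The mouse gene Gtf2ird2, related to the insert, had 6.38, 6.51 and 6.37 in induced A3, A4 and A5 cells, against 6.33, 6.04 and 6.36 in uninduced cells, a difference of 0.18 ± 0.10 (SE, adjusted p = 1.00, limma); whether its probe set reads the human insert is not known. The paper's own RT-PCR values give more transgene RNA in induced than in uninduced cells of each of A3, A4 and A5. All 14 naive ES cell markers had a mean of at least 5, with Pou5f1 at 12.56, 12.63 and 12.54 in A3, A4 and A5. Markers of fibroblasts and feeder cells summed to 224 to 231 linear units in induced and 217 to 234 in uninduced cells, with Col3a1 near 2.6 in each clone.

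Most of the 10 genes were well expressed. By its brightest probe set, Etv5 was at 11.38 (log2), Spred1 at 10.09, Fgf4 at 9.83, Spry2 at 9.81, Spred2 at 9.57, Etv4 at 9.44, Dusp6 at 9.22, Spry4 at 8.81, Fgfr1 at 8.01 and Fgfr2 at 6.61. Levels of different probe sets depend on their probes and were not compared with each other. Of the 35 probe sets, 31 averaged 5 or more, which is close to the array medians.

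The ligand and several feedback genes differed between clones, and they did so in opposite directions. Fgf4 was higher in A3 than in A4 and A5, Dusp6 and Etv4 were lower in A3 than in A5, and Etv5 was lower in A3 than in A4. In RNA of whole cultures, fewer cells that express a gene and less RNA per cell cannot be told apart. The differences called between pairs of clones were of 0.42 to 0.62 log2 units, 1.33 to 1.54-fold, and Etv5 was called only by pairs. Clones were compared with limma by a moderated F-test, fitted over all 45037 probe sets with an induction term and adjusted by Benjamini-Hochberg. Pairs of clones were compared in the same fit.

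By that test 4 of the 35 probe sets, from 3 of the 10 genes, passed an adjusted p of 0.05, against 2.18% of all probe sets tested (980 of 45037). Over the brighter part of the array, from a mean of 5 upwards, the share was 3.65%. With each gene represented once, by its brightest probe set, it was 3.09%, against 3 of the 10 genes. Without adjustment 11 of the 35 had a p under 0.05, against 15% of all probe sets. The median range of the clone means was 0.18 log2 units over the 35 probe sets and 0.14 over all.

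**Figure D1:**
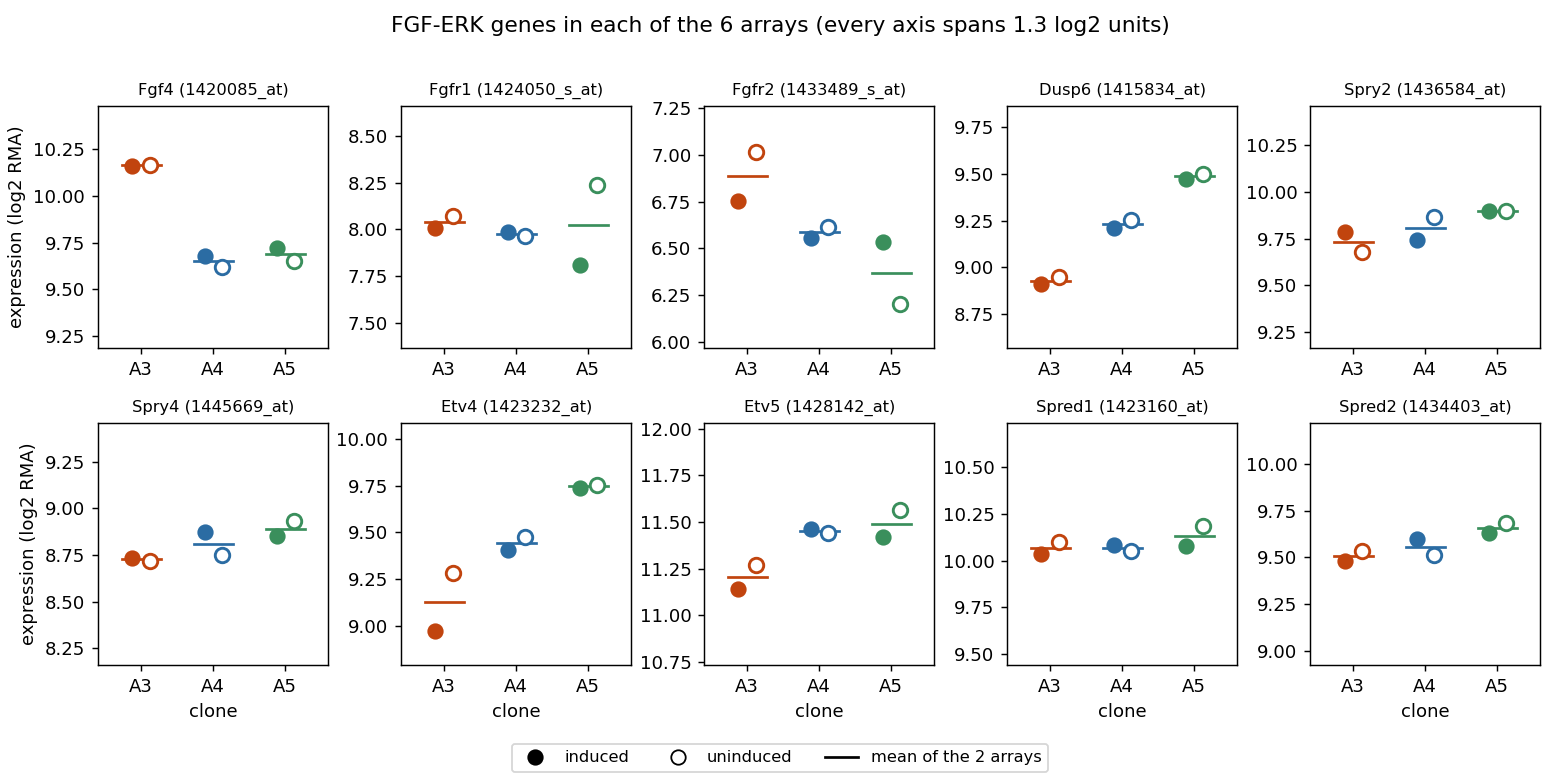
Expression (log2 RMA, vertical axis) of the brightest probe set of each gene, by clone (horizontal axis), with filled points for induced and open points for uninduced arrays and a line at the mean of both. Fgf4 is highest in clone A3, Dusp6 and Etv4 increase in the order A3, A4 and A5, and filled and open points of a clone lie close together for Dusp6 and Fgf4.

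Fgf4, the secreted ligand, had 10.16 and 10.17 in induced and uninduced A3 cells (log2, probe set 1420085_at), against 9.68 and 9.62 in A4 and 9.72 and 9.65 in A5. Both A3 arrays lay above all 4 others, while the arrays of A4 and A5 overlapped. Clone A3 exceeded A4 by 0.51 ± 0.08 (SE, 1.43-fold, adjusted p = 0.0184, limma) and A5 by 0.48 ± 0.08 (1.39-fold, adjusted p = 0.0329), with an adjusted p of 0.0287 in the F-test. A further Fgf4 probe set of the same level, 1420086_x_at, had clone means of 10.12, 9.61 and 9.70 in A3, A4 and A5 (adjusted p = 0.0381, F-test). It differed between A3 and A4 (adjusted p = 0.0207) but not past the threshold between A3 and A5 (adjusted p = 0.0553). The dimmer probe sets 1450282_at and 1449729_at also had their highest clone mean in A3, 7.48 and 3.84, with both A3 arrays above the other 4, and did not pass the F-test (adjusted p = 0.304 and 0.432).

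Among the receptors, no probe set passed the test. Fgfr1, which transmits the Fgf4 signal in ES cells, had clone means of 8.04, 7.97 and 8.02 in A3, A4 and A5 (1424050_s_at). Its difference between A3 and A5 was 0.02, with a 95% interval of -0.25 to 0.29. Fgfr2, the receptor known for its role in primitive endoderm, had 6.76 and 7.02 in induced and uninduced A3 cells, 6.56 and 6.62 in A4 and 6.53 and 6.20 in A5 (1433489_s_at). These arrays did not overlap between any pair of clones, and the mean of A3 exceeded that of A5 by 0.52 ± 0.13 (adjusted p = 0.126, limma; F-test 0.191). Its other probe sets were dimmer, and their clone means lay within 0.20 (1420847_a_at) and 0.25 (1443211_at) of each other.

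Dusp6, the Erk phosphatase, had 8.91 and 8.95 in induced and uninduced A3 cells (1415834_at), against 9.21 and 9.25 in A4 and 9.48 and 9.50 in A5. The pairs of arrays of the 3 clones were wholly separate, and the 2 arrays of a clone were 0.02 to 0.04 apart. Clone A3 was lower than A5 by 0.56 ± 0.08 (1.47-fold, adjusted p = 0.0170, limma), and its mean lay 0.30 ± 0.08 below that of A4 (adjusted p = 0.104), with 0.0299 in the F-test.

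The PEA3 factor Etv4 had the same order of clones (1423232_at). It had 8.97 and 9.28 in induced and uninduced A3 cells, against 9.41 and 9.48 in A4 and 9.74 and 9.75 in A5, again with no overlap between clones. It was lower in A3 than in A5 by 0.62 ± 0.10 (1.54-fold, adjusted p = 0.0225, limma), with a mean 0.32 ± 0.10 below that of A4 (adjusted p = 0.149) and 0.0402 in the F-test. Its dim probe set 1443381_at had clone means of 5.56, 5.68 and 5.92 in the same order (adjusted p = 0.212).

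Etv5, the other PEA3 factor, had its lowest clone mean in A3 in all its 3 probe sets, with both A3 arrays below the other 4 in each. The probe set 1420998_at had 9.12 and 9.10 in induced and uninduced A3 cells, against 9.54 and 9.65 in A4 and 9.44 and 9.33 in A5. It was lower in A3 than in A4 by 0.49 ± 0.09 (1.40-fold, adjusted p = 0.0302, limma), and 1450082_s_at by 0.42 ± 0.09 (1.33-fold, adjusted p = 0.0438). The F-test did not call them (adjusted p = 0.0724 and 0.0902), nor the bright probe set 1428142_at, with clone means of 11.20, 11.45 and 11.49 (adjusted p = 0.240). Unlike Dusp6 and Etv4, 2 of the 3 Etv5 probe sets had their highest mean in A4, though A4 and A5 did not differ past the threshold in any of them.

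The Sprouty and Spred genes did not pass the test in any of 19 probe sets. Spry2, an inhibitor of receptor signalling, had clone means of 9.73, 9.81 and 9.90 in A3, A4 and A5 (1436584_at), a difference between A3 and A5 of -0.17 with an interval of -0.38 to 0.04. Spry4, a relative of Spry2, had 8.73, 8.81 and 8.89 (1445669_at), and its second bright probe set 1440867_at had 8.59, 8.70 and 8.87 (adjusted p = 0.317, F-test). Spred1 and Spred2, which bring neurofibromin to Ras at the membrane, had clone means of 10.07, 10.07 and 10.13 (1423160_at) and of 9.51, 9.56 and 9.66 (1434403_at). The intervals of the difference between A3 and A5 ran from -0.26 to 0.13 for Spred1 and from -0.35 to 0.05 for Spred2. At their brightest probe sets all 4 genes had their highest mean in A5, but no pair of clones was called, and for Spred1 the arrays of all clones overlapped. The dimmer probe sets did not all share this order. Some of Spred1 had their highest mean in A3 or A4, and some of Spred2 and Spry4 had it in A4.

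**Figure D2:**
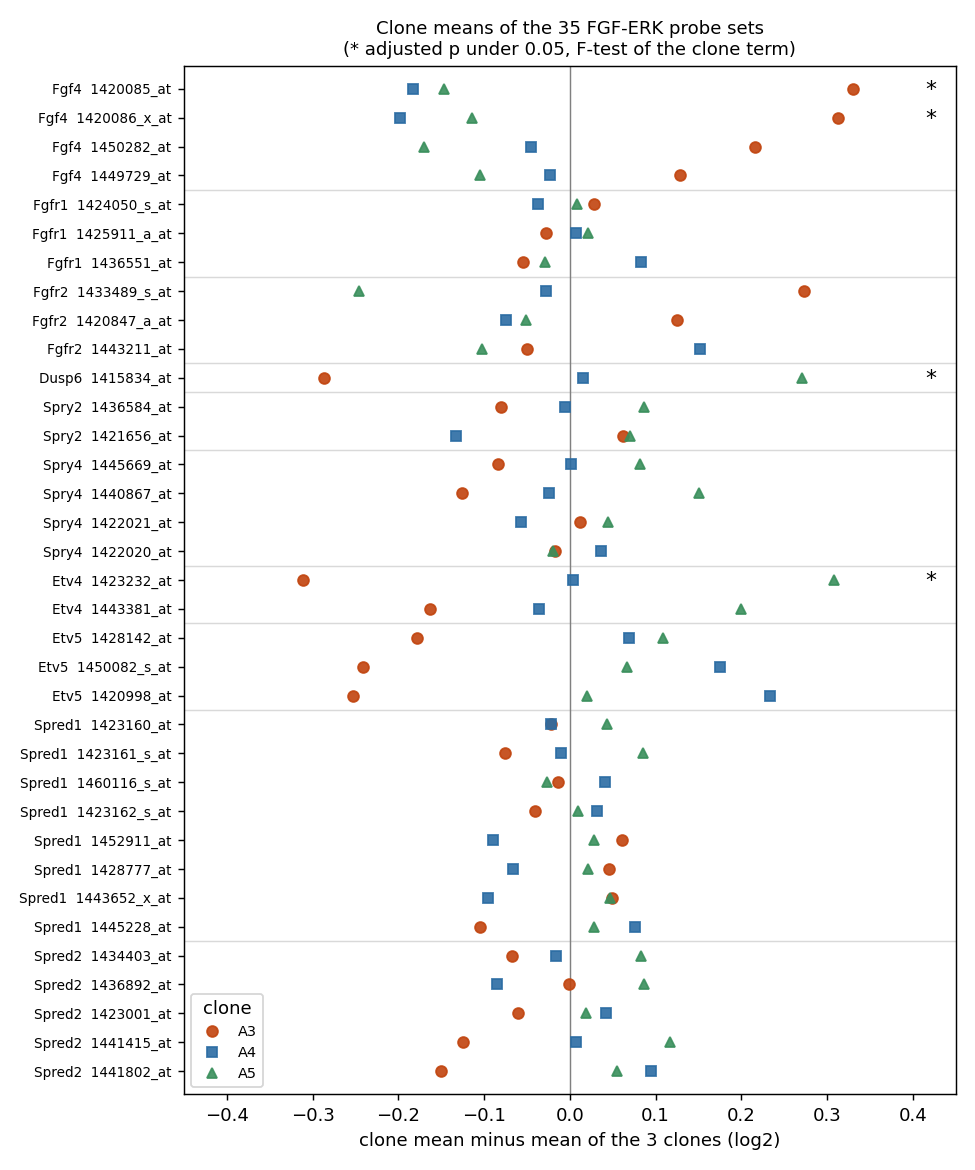
Clone means of all 35 probe sets, each minus the mean of the 3 clones (log2, horizontal axis), with a row for each probe set grouped by gene, a symbol for each clone and an asterisk where the F-test gave an adjusted p under 0.05. The Fgf4 rows have A3 on the right, and the Dusp6, Etv4 and Etv5 rows have A3 on the left.

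Set side by side, the order A5, A4, A3 from high to low was found in 6 of the 10 brightest probe sets and in 11 of all 35, against 7630 of 45037 over the array. A5 had the highest mean in 7 of the 10 genes, against 5457 of all 18193 genes by their brightest probe set. A3 had the lowest in 6, against 7456, and the highest in 3 (Fgf4, Fgfr1 and Fgfr2), against 6292. Both A3 arrays lay below all A4 and A5 arrays in 8 of the 35 probe sets and above them in 7, against 6091 and 5440 of 45037.

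By pairs of clones, A3 differed from A4 in 2 probe sets upwards (both Fgf4) and 2 downwards (both Etv5), against 2.94% of all probe sets called in either direction. A3 differed from A5 in 1 upwards (Fgf4) and 2 downwards (Dusp6 and Etv4), against 1.68%. Between A4 and A5 none of the 35 was called, against 0.0511%. In that last comparison Dusp6 in A4 was 0.26 below A5 (adjusted p = 0.610) and Etv4 0.30 below (adjusted p = 0.614).

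These clone calls rest on 2 arrays a clone. With any 1 array left out, 0 or 1 of the 35 probe sets was called, the 1 being Dusp6 without the induced A4 array (adjusted p = 0.0482). With both A3 arrays left out 0 were called. Over the 11 alternatives run, Dusp6 in A3 was 0.54 to 0.56 below A5 and Etv4 0.49 to 0.75 below. Fgf4 (1420085_at) in A3 was 0.48 to 0.55 above A4. That these differences kept their sign is no support for the calls. The arrays did not overlap between these clones, so the sign was nearly fixed in advance. Each clone is 1 line, so that a difference between clones and one between the cultures or arrays of each line cannot be told apart.

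Other values moved with the clones. By the paper's RT-PCR values, transgene RNA was highest in A3 in both induced and uninduced cells. Clones A4 and A5 had less of it and lay closer together. The 24 probe sets of the poly-A spikes, added before labelling, averaged 6.75, 6.46 and 6.31 in A3, A4 and A5, an order opposite to that of Dusp6 and Etv4. Induced and uninduced arrays had 6.91 and 6.58 in A3, 6.51 and 6.42 in A4 and 6.57 and 6.06 in A5. The arrays of A4 and A5 thus overlapped. The 3′ minus 5′ difference of Actb, a measure of RNA integrity, was 0.33, 0.29 and 0.31, and within A5 alone it was 0.27 in induced and 0.36 in uninduced cells. Of the cell type markers, the naive list summed to 54334, 56840 and 55765 linear units in A3, A4 and A5, with 0 of 14 called. The trophoblast list summed to 654, 1135 and 1010, with Eomes, Tfap2c and Krt18 lower in A3 and past the F-test among 6 measured. The primed epiblast list summed to 3930, 3132 and 2940, most of it Dnmt3b, a DNA methyltransferase (clone means of 11.78, 11.40 and 11.32, adjusted p = 0.0536), with Otx2 past the test (5.62, 6.25 and 5.78) and the defining marker Fgf5 near 3.6 in every clone. The primitive endoderm list summed to 235, 254 and 279, with Dab2 the 1 of 8 past the test and Gata4 and Gata6 between 4.46 and 5.10. The part of these values in the clone differences of the FGF-ERK genes was not tested.

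Other genes of the pathway were followed in 8 lists, of which 105 of 116 genes were analysed here. The F-test called 7 of the 105, against 3.09% of all genes with 1 probe set each. They were 1 of 17 ligands, 0 of 8 receptors, 2 of 8 heparan sulfate enzymes, 1 of 11 adaptors and Ras activators, 0 of 10 genes of the Ras, Raf, Mek and Erk list, 0 of 12 kinases and factors below Erk, 1 of 25 negative regulators and 2 of 14 readouts.

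Fgf18, a ligand of the Fgf8 subfamily, had 6.42 and 6.51 in induced and uninduced A3 cells, against 5.54 and 5.23 in A4 and 5.66 and 5.87 in A5, and was higher in A3 by 1.08 ± 0.12 over A4 and 0.70 ± 0.12 over A5 (adjusted p = 0.0107, F-test). Thus a second ligand was higher in A3, beside Fgf4. Both enzymes past the test act on heparan sulfate, the co-receptor of FGFs. Hs6st2, which adds 6-O-sulfate to it, had 6.01 and 5.51 in induced and uninduced A3 cells, against 4.38 and 4.33 in A4 and 4.02 and 4.38 in A5 (adjusted p = 0.00628). Its 3 dimmer probe sets, with means between 2.25 and 3.87, did not pass. Sulf1, which removes 6-O-sulfate outside the cell, was higher in A3 by 0.76 ± 0.09 over A4 and 0.75 ± 0.09 over A5 (adjusted p = 0.00723), and a second probe set, 1436319_at, passed too (adjusted p = 0.0127), while its dim probe set 1446416_at did not.

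Within the cytoplasmic arm, Sos2, an activator of Ras, was dim, with clone means of 4.44, 5.08 and 4.88 in A3, A4 and A5. Clone A3 was lower than A4 by 0.64 ± 0.11 (adjusted p = 0.0211, limma). Its mean lay 0.43 below that of A5 (adjusted p = 0.113, limma), with 0.0469 in the F-test. Shc1, an adaptor, had 8.88 and 8.98 in A3, against 9.24 and 9.39 in A4 and 9.42 and 9.29 in A5, and did not pass (adjusted p = 0.103, F-test). Dusp4, a nuclear phosphatase of Erk, had 5.36 and 5.12 in induced and uninduced A3 cells, against 5.90 and 5.81 in A4 and 5.65 and 5.82 in A5 (adjusted p = 0.0491). Dusp9, another Erk phosphatase, had 8.92 and 9.26 in A3, against 9.29 and 9.37 in A4 and 9.49 and 9.63 in A5, the order of Dusp6, and did not pass (adjusted p = 0.0962).

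Readout genes did not share 1 direction. Egr1, an immediate early gene, was higher in A3 by 1.49 ± 0.11 than in A4 and by 1.26 ± 0.11 than in A5 (adjusted p = 0.00196, F-test), with 8.86 and 9.08 in induced and uninduced A3 cells and 7.46 to 7.91 in the other 4 arrays. Plaur, the urokinase receptor, was higher in A3 by 0.71 ± 0.09 and 0.60 ± 0.09 (adjusted p = 0.0152). These run opposite to Dusp6, Etv4 and Dusp4, which are also widely used as readouts of Erk.

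**Figure D3:**
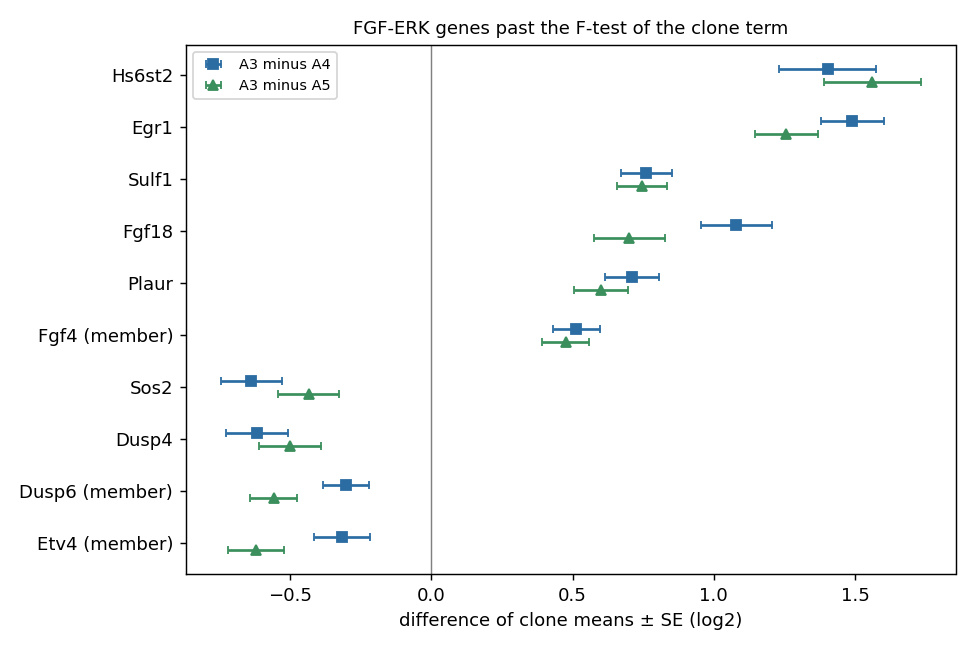
Differences of clone means, A3 minus A4 (squares) and A3 minus A5 (triangles), with their standard errors (log2, horizontal axis), for each pathway gene past the F-test of the clone term, by its brightest probe set. Hs6st2, Egr1, Sulf1, Fgf18, Plaur and Fgf4 lie right of 0, higher in A3, and Sos2, Dusp4, Dusp6 and Etv4 lie left of it.

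Induction of the transgene for 24 hours is the comparison for which the series was made, and it moved none of the 10 genes past the test. By limma without a clone block, 0 of the 35 probe sets were called, against 0% of all probe sets (0 of 45037). Without adjustment 0 of the 35 had a p under 0.05, against 3.12% of all, and induced and uninduced arrays were apart in 0 of the 35, against 7.95%. With the clone as a block 0 were called (smallest adjusted p = 0.843), and 1 of 35 had an unadjusted p under 0.05, against 5.77%.

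The differences, induced minus uninduced, ran between -0.18 and 0.11 log2 units with 17 above and 18 below 0. Their median was -0.0049, against -0.0037 over all probe sets. At the brightest probe sets they were 0.04 ± 0.17 for Fgf4, -0.16 ± 0.09 for Fgfr1 (± SE) and close to 0 (SE 0.18) for Fgfr2 with n = 3 arrays a group. For the feedback genes they were -0.03 ± 0.17 for Dusp6, -0.13 ± 0.19 for Etv4, -0.08 ± 0.11 for Etv5, 0.02 ± 0.08 for Spry4 and between -0.05 and 0 for Spry2, Spred1 and Spred2. At these probe sets the 95% intervals reached at most from 0.675-fold (Etv4) to 1.35-fold (Fgf4). With the clone as a block they reached at most from 0.770-fold (Fgfr1) to 1.19-fold (Fgfr2).

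For the genes that differed most between clones the SE of this comparison contains the clone differences. Dusp6 in induced cells was 0.03, 0.04 and 0.02 below uninduced cells in A3, A4 and A5, 1 of 3 probe sets lower in all 3 clones. With the block its SE was 0.07 in place of 0.17, and its p 0.640. The other 2 were Etv4 (1423232_at), at -0.31, -0.07 and -0.02 in A3, A4 and A5, and Spred2 1441415_at, at -0.06, -0.17 and -0.30. That dim Spred2 probe set had the 1 unadjusted p under 0.05 with the block (0.048, adjusted p = 0.843), while the 4 other Spred2 probe sets had differences of -0.04 to 0.04. None of the 35 probe sets was higher in all 3 clones. Over all 45037 probe sets, 6152 were lower and 5513 higher in all 3 clones.

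**Figure D4:**
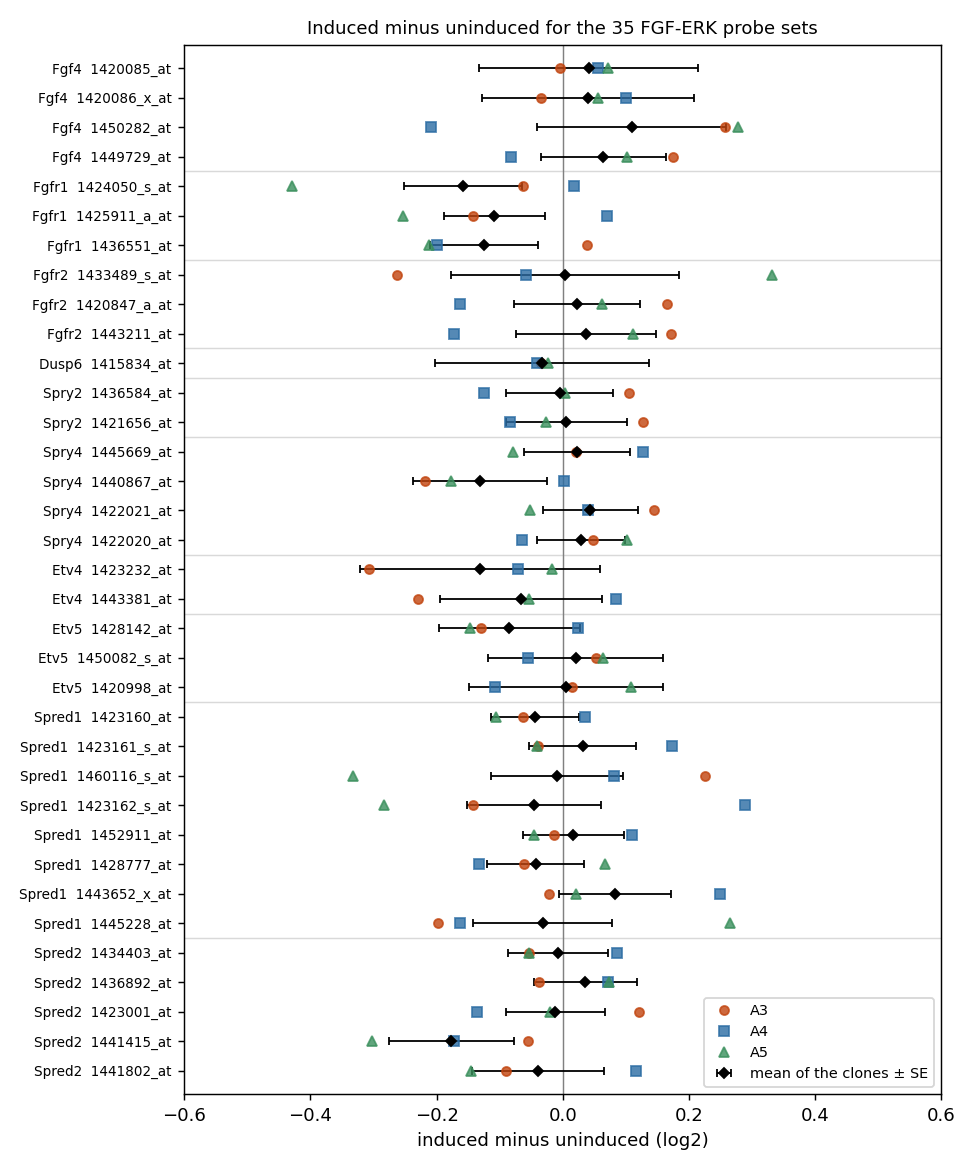
Induced minus uninduced (log2, horizontal axis) for all 35 probe sets, with a coloured symbol for each clone and a black diamond with its standard error for the mean over clones. All diamonds lie between -0.18 and 0.11, and the clones scatter on both sides of 0 in most rows.

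The response of 1 clone was also set against that of the other two, a test with 1 residual degree of freedom, and 0 of the 35 probe sets were called (smallest adjusted p = 0.911, limma). Fgfr2 (1433489_s_at) had differences of -0.26, -0.06 and 0.33 in A3, A4 and A5, and Fgfr1 (1424050_s_at) -0.06, 0.02 and -0.43. At these probe sets the 2 receptors had their largest differences in A5 with opposite signs (unadjusted p = 0.0177 and 0.0312 for A5 against the others). The other Fgfr2 probe sets did not have their largest in A5, at 0.17, -0.16 and 0.06 (1420847_a_at) and 0.17, -0.17 and 0.11 (1443211_at). Those of Fgfr1 had -0.14, 0.07 and -0.25 (1425911_a_at) and 0.04, -0.20 and -0.21 (1436551_at). Unadjusted p under 0.05 were found in 0, 2 and 4 of the 35 for A3, A4 and A5, against 2292, 2447 and 2416 of all 45037.

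None of the 105 other pathway genes was called for induction either, and 3 had an unadjusted p under 0.05, against 2.36% of all genes, each by its brightest probe set. These 3 are given as values. Shisa2, whose Xenopus relative Shisa holds FGF receptors inside the cell, had 6.57, 6.27 and 6.06 in induced A3, A4 and A5 cells, against 6.19, 5.72 and 5.70 in uninduced cells. It was higher in each clone, though the groups overlap, by 0.43 ± 0.16 on average (adjusted p = 1.00, limma). Fgf21, a hormone of the FGF family, had 5.06, 4.94 and 5.03 in induced cells against 5.17, 5.20 and 5.26 in uninduced cells (-0.20 ± 0.07), and Fgf7, keratinocyte growth factor, 4.07, 4.19 and 4.02 in induced cells against 4.34, 4.19 and 4.33 in uninduced cells (-0.19 ± 0.08). The groups did not overlap in Fgf21 or Fgf7, which their choice by a small p made likely. Over all 105 other pathway genes the groups were apart in 6, against 7.22% of all genes. For Fgf7 the arrays of A4 were almost equal and its dimmer probe set had -0.04 (unadjusted p = 0.623, limma). Poly-A spikes averaged 6.66 ± 0.22 in induced and 6.35 ± 0.26 in uninduced arrays (SD, n = 3, exact permutation p = 0.3, two-sided), and their part in these differences was not tested.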

How the data were processed

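Total RNA of 6 cultures, induced and uninduced cells of clones A3, A4 and A5, was profiled on Affymetrix Mouse Genome 430 2.0 arrays, 1 array per culture. Deposited were log2 RMA values, which the authors made in affy with background correction, quantile normalization and summarization of each probe set. The affy and RMA versions are not given in the sources used here. Values are relative to the other arrays, and their small number limits the precision.

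Of 45101 probe sets, 64 controls were set aside and 45037 tested with limma 3.58.1 in R 4.3.3, with no intensity filter and Benjamini-Hochberg adjustment over all of them (threshold 0.05). Induction was fitted without a block, after the unpaired test of the methods, with clone as a block in an alternative. Clones were compared by the F-test of clone beside an induction term, and in pairs. Deviations from group means correlated at 0.524, 0.376 and 0.210 between the 2 arrays of A3, A4 and A5, and at -0.407 to 0.0689 between clones. Deviations from a mean of 3 arrays sum to 0, which by itself lowers the values between clones where those within clones are positive. Of the arrays of the other group, each array correlated most with that of its own clone, as the labels pair them.

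Genes were named by the single symbol of the array annotation, and 932 probe sets with several symbols and 9160 with none were left unnamed. All probe sets of the 10 genes were named, and from each pathway list up to 3 genes by the smallest p between clones and up to 2 by the smallest p for induction, each by its brightest probe set. Genes and lists were chosen with earlier results of these data known. Marker sums add 2 to the power of each log2 value. Scripts were tested on simulated data. Alternatives were the block, the methods' t-test, an intensity trend, a mean of at least 5, median centring, and leaving out arrays or clones.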

Additional observations from a re-analysis of the deposited data

How the results depend on the processing

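The count for induction was 0 of 45037 under each alternative run, with the clone as replicate block included. Over the 521 alternative values of the 35 probe sets for induction none passed the threshold and 85 had the other sign, and 6 probe sets kept 1 sign throughout.

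Clone calls depended on the variance model, the filter and single arrays; beyond the smaller number of arrays or probe sets, the cause was not tested. The F-test called 980 probe sets, against 2641 with an intensity trend, 1885 among means of at least 5, 26 without both A3 arrays, and 248 to 860 with 1 array left out (248 and 413 when the left-out array was the induced or the uninduced one of A3, and 633 for the uninduced one of A4). Of the FGF-ERK probe sets 4 were called, against 7 with the trend, 0 without both A3 arrays and 0 to 1 with 1 array left out. The Etv5 probe set 1420998_at passed the F-test under the trend, the filter and without both A5 arrays. For A3 minus A4, 1324 probe sets were called, against 3192 with the trend, 2615 with the filter and 376 to 1427 with 1 array left out. For A3 minus A5 there were 757, against 1746, 1467 and 164 to 794, and for A4 minus A5 23, against 59, 38 and 6 to 26. Among the other pathway genes Hs6st2 and Egr1 passed the F-test with each array left out. Without the uninduced A3 array Fgf18 did not (adjusted p = 0.0562), and without the induced A3 array Sulf1 (0.0841) and Plaur (0.158) did not. Sos2 did not pass without either A3 array or the uninduced A4 array (0.106 to 0.219), nor Dusp4 without any of the A3 and A4 arrays (0.0957 to 0.309). Both were also lost with arrays centred on their medians (0.0519 for Sos2 and 0.0520 for Dusp4) and without both A4 arrays (0.0725 and 0.0838). Without both A3 arrays none of the 7 passed.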
